A study of Mus musculus with 2 samples.

Results

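The transcripts described here are spliced forms of annotated mouse genes that the GENCODE M21 annotation does not list, although nearly all their splice sites are annotated in the same genes. The authors' transcript tables call such a model new in catalog. A model was kept when it carried that label in both libraries, when every intron had the same coordinates in both, and when it held 3 or more reads in each. The rule kept 1059 models of 768 genes, out of 25647 new-in-catalog chains of introns with a read in either library. The read minimum chose the models, so their levels are given as a description and are not tested.

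Splicing joins exons at a 5' splice site, where an intron begins, and a 3' splice site, where it ends, nearly always at the 2 bases AG. One gene can yield several messengers through exons that are left out, introns that are kept, and neighbouring sites that compete. Annotation catalogs list only the combinations seen before, and a long read, which spans a transcript from end to end, can show a combination that short reads cannot. A change in length by a multiple of 3 bases in coding sequence keeps the reading frame, and a stop codon well before the last junction can mark a messenger for nonsense-mediated decay.

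The tissue was the adrenal gland of female B6CASTF1/J mice at 2 months of age, untreated as far as the labels state, and the animals are a cross of the B6 and CAST strains. There was 1 group with 2 libraries, labelled as biological replicates 1 and 2. The sample descriptions number the females differently, but the library descriptions and the donor entry are the same for both, so the spread between the libraries may be partly technical. Reads came from both parental genomes while all coordinates are those of the reference build mm10; the part of strain differences in any splice form was not tested.

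The tables held 1277310 and 520388 reads, of which 1209457 and 502655 belonged to annotated nuclear genes, the total used for CPM, the reads of a gene per 1000000 such reads. All 7 markers of adrenal cortex cells were detected, with a summed level of 63604 CPM in replicate 1 and 83039 CPM in replicate 2. All 6 markers of the medulla were detected as well, at 11602 and 6698 CPM. The 4 adipocyte markers summed to 3445 and 3191 CPM, the 3 red blood cell markers to 938 and 619 CPM, and the 5 kidney markers to 4.13 and 3.98 CPM. The tissue label thus stood on its defining genes, and cortex and medulla differed in proportion between the libraries. The part of that difference in any model's share was not tested.

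The 1059 models held 21488 reads in replicate 1 and 10960 in replicate 2. That is 1.78% and 2.18% of the reads of annotated nuclear genes (1.98% ± 0.285, SD, n = 2), and 43.0% and 44.6% of all new-in-catalog reads. Of the models with 3 or more reads in replicate 2, 66.5% had 3 or more in the deeper replicate 1, and in the other direction the share was 34.2%. The median model held 9 reads in replicate 1 and 5 in replicate 2; 225 models held 10 or more in each library, 27 held 50 or more and 8 held 100 or more. At the edge of the rule, 334 models had a lower count of exactly 3, with a median share of their gene of 4.26% and 5.88%. Just outside it, 698 chains had a lower count of 2, with a median share of 3.39% and 5.41%.

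Most models were new combinations of known parts. In 859 of them (81.1%) every junction was annotated in the gene and only the combination was new. A further 131 joined annotated splice sites of the gene in a new pair. The last 69 used a site not annotated in their gene, and for 58 of these the site was absent from the whole annotation. The absent sites numbered 79, and 39 of them lay within 30 bases of an annotated site of the same kind. Protein-coding genes held 1047 of the models, and a model had a median of 11 exons, from 2 to 49.

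Each model was set beside its closest annotated transcript, the one of its gene with the fewest introns not shared between the 2. The 2 kinds of difference with the most models were a changed 3' splice site and an intron kept in the messenger, with 149 models each. An exon was left out in 134 models, a 5' splice site changed in 113, the first exon changed in 113, an exon was added in 52, and an intron was taken out of an annotated exon in 50. In 85 models further introns lay upstream of the annotated transcript, in 74 further introns lay downstream, and in 11 the last exon changed. A combination of differences was found in 51 models, 6 fell in no class, 11 joined sites of more than 1 gene, and 3 differed only at an annotated gap under 30 bases.

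**Figure D1:**
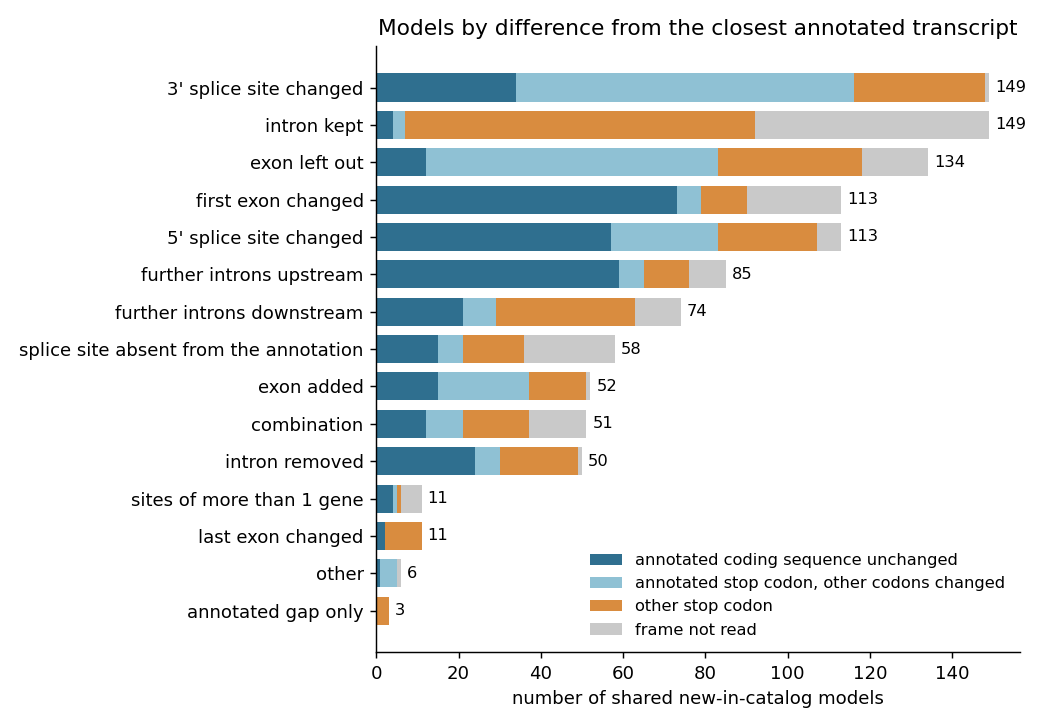
Number of shared new-in-catalog models (horizontal axis) by their difference from the closest annotated transcript (vertical axis), with the total at the end of each bar. Colours give the reading frame from the annotated start codon; of the 92 models with an intron kept that could be read, 85 end at another stop codon, whereas most with a changed 3' splice site kept the annotated one.

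The 3 gap-only models belong to the antizyme genes Oaz1 and Oaz2, whose annotated transcripts hold a gap too short for an intron, and whose protein is made through a ribosomal frameshift. The first Oaz1 model held 1784 and 737 reads, 95.5% and 96.0% of the gene, the highest count of any model here. The 3 models differ from the annotation only at this gap, and they carry 10.1% and 7.77% of all member reads.

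The most regular difference was a shift of a 3' splice site by exactly 3 bases. Of the 149 models with a changed 3' splice site, 67 (45.0%) differed by 3 bases, and no other distance up to 30 bases held more than 4 of them. Among the 113 models with a changed 5' splice site, 1 differed by 3 bases and the most frequent distance, 9 bases, held 5. In each of the 67 cases the 3 bases between the sites end in AG, which follows from the need for an AG at both sites. They read CAG in 51 models, and the rest began with A, T or G. Of the 10253 annotated internal exons of the same genes, 5.98% have AG as the last 2 of their first 3 bases. Since the sites fix the AG in the 67 cases, this is not a test of enrichment. The sequences of 6 such sites are shown because they show what the choice of site adds or removes. Each is 12 bases of the upstream exon, the 3 optional bases in capitals, and 12 bases of the downstream exon, 5' to 3' on the coding strand of mm10.
Ctbp1 chr5:33248684-33248686, minus strand: ggctgcctacagCAGgtaccctccagg
H2afy chr13:56096232-56096234, minus strand: cggaagtctaagAAGaagcagggagaa
Pitrm1 chr13:6549580-6549582, plus strand: gctgagctgcggCAGggtacaccacag
Ecm1 chr3:95738114-95738116, minus strand: acctccatgaagTAGgttatgcagcac
Fkbp8 chr8:70531522-70531524, plus strand: cccccagggcagCAGgagcccatacat
Hspbp1 chr7:4684567-4684569, minus strand: agacccggcaagCAGaccttcaagagt

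**Figure D2:**
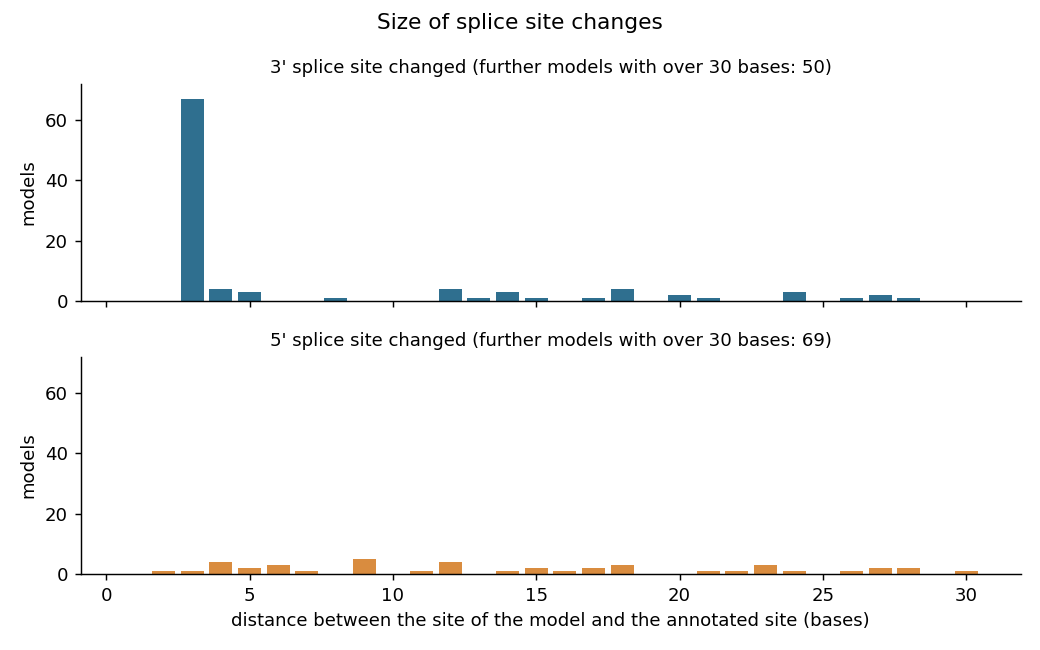
Distance in bases between the splice site of a model and the annotated site (horizontal axis) against the number of models (vertical axis), for changed 3' splice sites (top) and changed 5' splice sites (bottom). The column of 67 models at 3 bases appears for 3' splice sites alone, and the models with larger distances are counted in the panel titles.

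The 67 models fall on 59 pairs of sites in 59 genes, since some genes hold several models with the same pair. The model had the shorter exon in 54 cases and the longer exon in 13. Of the 67, 57 reached the annotated stop codon with a codon gained, lost or exchanged, 9 left the coding sequence as annotated, none ended at another stop codon, and 1 could not be read to a stop. Ctbp1, which encodes a transcriptional corepressor, gave the model with the most reads of this group, 293 and 158, or 62.5% of the gene's reads in replicate 1 (exact 95% interval 57.9% to 66.9%) and 65.0% in replicate 2 (58.7% to 71.0%). Over all reads of Ctbp1 that cross this junction, 384 of replicate 1 included the 3 bases and 70 did not, and in replicate 2 the counts were 200 and 39. The shares with the 3 bases were thus 84.6% and 83.7%.

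H2afy, which encodes the histone variant macroH2A1, had the 3 bases in 116 reads and lacked them in 169 in replicate 1, and the counts were 44 and 65 in replicate 2. The 2 libraries thus had 40.7% and 40.4% of reads with the 3 bases. In Ecm1, an extracellular matrix protein, 71.3% and 74.0% of the reads over the junction had the 3 bases, and in Fkbp8, an immunophilin, 81.4% and 84.6%. In Hspbp1, a partner of Hsp70 chaperones, the value was 40.4% of 52 reads in replicate 1 and 18.5% of 27 in replicate 2, the largest distance between the libraries.

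Of the 59 pairs, 46 had 20 or more reads over the junction in each library. In 32 of these, both sites were used in at least 10% of the reads in each library. The 3 bases were present in most reads at 33 of the 46 pairs in both libraries, and in under 50% at 10 pairs in both. The median share with the 3 bases was 77.6% in replicate 1 and 77.1% in replicate 2. The libraries differed at a pair by a median of 3.72 percentage points and by at most 21.9. Across the 46 pairs the shares of the libraries had a Spearman correlation of 0.961, a description, since the pairs are not replicates of a condition and were chosen on reads in both libraries.

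**Figure D3:**
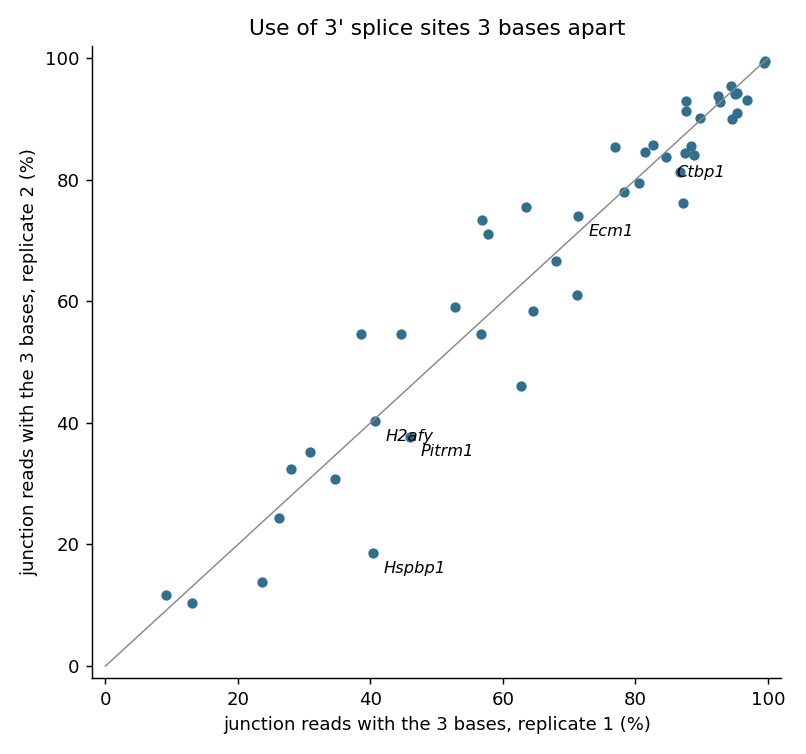
Percentage of reads over the junction that contain the 3 optional bases, in replicate 1 (horizontal axis) and replicate 2 (vertical axis), for the 46 pairs of 3' splice sites with 20 or more reads in each library. Each point is 1 pair and the line marks equal use; the points follow the line, and Hspbp1 lies farthest from it.

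Exons left out or added within coding sequence mostly had a length that is a multiple of 3. Among the 134 models with an exon left out, 109 lost only wholly coding sequence, and in 72 of these (66.1%) the lost length was a multiple of 3. Among models with an exon added, this held for 22 of 25 (88.0%). Of 8294 annotated internal coding exons of genes with a member, 39.1% have such a length. The median length was 115 bases for exons left out and 98.5 bases for exons added. Of the models that could be read, 83 of 118 with an exon left out and 37 of 51 with an exon added reached the annotated stop codon.

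Cd47, a cell surface protein that restrains phagocytosis, gave the clearest case. The model without its 63-base exon held 360 reads in replicate 1 and 81 in replicate 2, or 59.8% of the gene (55.8% to 63.7%) and 64.3% (55.3% to 72.6%). The closest annotated transcript, which includes the exon, held 115 and 22 reads. Counting every Cd47 read over this place, the exon was left out in 443 reads and included in 142 in replicate 1, and in replicate 2 the counts were 95 and 30. The exon was therefore left out in 75.7% and 76.0% of reads, and the predicted protein changed from 324 to 303 codons.

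For other coding exons the share of reads without the exon ranged widely. Ints13, a subunit of the Integrator complex, lacked a 78-base exon in 51 of 57 reads over it and in 9 of 10, and Clstn1, a calsyntenin, lacked a 57-base exon in 63.4% and 63.0%. Mff, a receptor of mitochondrial fission, lacked a 60-base exon in 57.4% and 35.7%. The exon was present in most reads of the next genes. Tbc1d9b lacked a 57-base exon in 24.4% and 22.5% of the reads over it, and Mia2, a protein of endoplasmic reticulum exit sites, lacked a 72-base exon in 27.9% and 26.8%. Atl2, an atlastin that shapes the endoplasmic reticulum, lacked a 72-base exon in 11.1% and 9.92%. In the steroid enzyme gene Akr1d1 the exon left out, of 117 bases, was missing from 1.19% and 1.22% of reads. Setd3, an actin histidine methyltransferase, lacked an exon of 149 bases, not a multiple of 3, in 24.3% and 15.6% of reads and then ended at another stop codon.

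Among exons added, Opa1, a GTPase of mitochondrial fusion, included a 111-base coding exon in 51.1% and 56.3% of the reads over it. Kifc3, a kinesin, included 321 bases of added exon in 61.0% and 63.7%, which raised the predicted length from 824 to 931 codons. In Ndufs1, a subunit of respiratory complex I, the added exon of 104 bases was included in 30.9% and 36.8% of reads, and left the coding sequence as annotated. The sequences of 5 coding exons are given because each has a length that is a multiple of 3, although an exon need not begin at the first base of a codon. The whole exon is in capitals, 5' to 3' on the coding strand of mm10; the first 3 and the last were left out and that of Opa1 was added.
Cd47 chr16:49869018-49869080, plus strand: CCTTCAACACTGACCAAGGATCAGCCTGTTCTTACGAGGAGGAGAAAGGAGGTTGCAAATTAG
Tbc1d9b chr11:50168169-50168225, plus strand: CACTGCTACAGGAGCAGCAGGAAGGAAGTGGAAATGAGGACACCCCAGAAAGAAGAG
Mia2 chr12:59144699-59144770, plus strand: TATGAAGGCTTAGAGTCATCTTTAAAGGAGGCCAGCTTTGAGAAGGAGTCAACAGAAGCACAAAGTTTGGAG
Opa1 chr16:29597586-29597696, plus strand: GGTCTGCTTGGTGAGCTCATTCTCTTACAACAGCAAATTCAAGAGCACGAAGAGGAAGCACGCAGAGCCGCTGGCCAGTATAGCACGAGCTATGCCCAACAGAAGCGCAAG
Cyp21a1 chr17:34804044-34804133, minus strand: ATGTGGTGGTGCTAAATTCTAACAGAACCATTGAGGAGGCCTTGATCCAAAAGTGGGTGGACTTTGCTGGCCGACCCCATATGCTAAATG

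Some models lacked an annotated exon so short that placing it was in doubt. In 21 models the difference lay at an annotated internal exon under 30 bases, or was an intron of unchanged length shifted along the genome. For 18 of the 21 the closest annotated transcript had no read in either library. In both libraries 10 of the 21 held the most reads of their gene, ties included, among spliced models other than incomplete and genomic ones. Phb2, which encodes prohibitin 2 of the inner mitochondrial membrane, is an example. Its model lacked an annotated exon of 6 bases and held 298 of the gene's 331 reads in replicate 1 and 132 of 135 in replicate 2. None of the 325 and 134 reads over the place showed the exon, which allows a share of up to 0.923% and 2.24%. Sept7, a septin, lacked a 5-base exon in all 161 and 69 such reads, which allows up to 1.86% and 4.35%.

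In Hnrnpk, an RNA-binding protein of the hnRNP family, the annotated transcript holds a 16-base exon, and none of 891 and 307 reads showed it (up to 0.337% and 0.977%). Of its 5 models, 4 carried instead 16 more bases at the neighbouring splice site, and the intron bases removed were 285 in both the model and the annotation. The 16 bases at that site match those of the exon at 8 of 16 positions in the reference. In Pitpnb, a lipid transfer protein, an 8-base exon was in none of 100 and 51 reads, and the intron bases were 1198 in both the models and the annotation. The sequences around these exons are shown because their length is what sets these models apart. Capitals mark the annotated short exon, with 12 bases of the neighbouring exons on each side, 5' to 3' on the coding strand of mm10.
Hnrnpk chr13:58393853-58393868, minus strand: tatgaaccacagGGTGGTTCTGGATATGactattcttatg
Phb2 chr6:124716425-124716430, plus strand: aagttttactcgGGGAAGtgacagcctcat
Sept7 chr9:25265302-25265306, plus strand: gcggcaccatggTTTGTcaaccgaagaac
Pitpnb chr5:111347120-111347127, plus strand: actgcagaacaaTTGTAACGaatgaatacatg

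Annotated exons under 20 bases were rarely seen in these libraries. Over 4554 genes with 20 or more reads in each library, none of 38 annotated internal coding exons of 1 to 9 bases was in a model with a read. Of those of 10 to 19 bases, 13 of 79 (16.5%) were. The share was 77.8% at 20 to 29 bases, 92.2% at 30 to 49 bases, 97.3% at 50 to 99 bases and 98.1% at 100 to 199 bases. Whether the exon was skipped in the cell or lost in the alignment of the reads cannot be told apart from these files. The reading frame of the 21 models shares this limit.

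**Figure D4:**
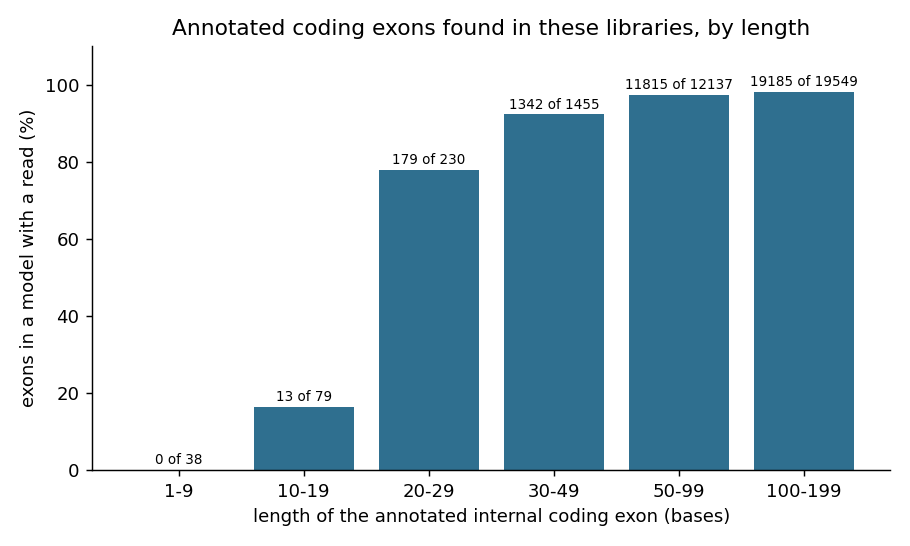
Percentage of annotated internal coding exons found in at least 1 read (vertical axis) by exon length in bases (horizontal axis), over genes with 20 or more reads in each library. Numbers above the bars are exons found and exons annotated; no exon of 1 to 9 bases was found and nearly all of 50 bases or more were.

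Models with another first exon or with further introns upstream mostly kept the annotated coding sequence. Of the 113 models with another first exon, 90 could be read and 73 kept the coding sequence whole, as did 59 of 76 with further introns upstream. Models that lacked the annotated start codon were not read, 22 with another first exon and 7 with further introns upstream. With a changed 5' splice site, which can lie at any intron, 57 of 107 did. Cyb561, which carries electrons into the chromaffin granules of the medulla, used a first exon other than that of its closest transcript in a model with 313 and 67 reads, 49.7% of the gene (45.7% to 53.7%) and 46.2% (37.9% to 54.7%). The reads that showed this first intron numbered 373 against 81 in replicate 1 and 78 against 28 in replicate 2, or 82.2% and 73.6%. In Clu, which encodes the chaperone clusterin, the model with another first exon held 127 and 105 reads, 47.9% and 53.3% of the gene. In both genes the predicted protein was unchanged.

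Mpc1, a subunit of the mitochondrial pyruvate carrier, was carried almost wholly by 1 model with further introns upstream, which did not keep the coding sequence. Its reads were 93.5% of the gene (90.3% to 95.9%) and 95.3% of it (89.4% to 98.5%) in replicate 2, and it joined annotated sites in a pair not annotated. Its closest transcript held 2 reads in replicate 1 and none in replicate 2, and that transcript is annotated as a retained intron form. Read from the start codon of an annotated coding transcript of Mpc1, the model ended after 42 codons in place of 109. Hspd1, a mitochondrial chaperonin, shifted a 5' splice site by 210 bases in 224 and 56 reads, which was 5.12% and 4.33% of the gene. Aars, the transfer RNA synthetase for alanine, shifted one by 355 bases in 25.5% and 25.4% of its reads. Both kept the annotated protein. Coro1b, an actin-binding coronin, shifted a 5' splice site by 7 bases in 47.8% and 47.5% of its reads, with the coding sequence as annotated.

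At the 3' end, a changed last exon was rarer and mostly gave another stop codon, in 9 of 11 models. Cyhr1 gave the one with the most reads, 238 and 98, or 50.6% and 53.6% of the gene, and its predicted protein had 399 codons in place of 412. Of the reads of Cyhr1 that show either last intron, 66.6% and 75.2% used this one. Further introns downstream of the closest transcript gave another stop codon in 34 of 63 models that could be read. Mbnl2, a regulator of splicing, held 65.5% and 53.8% of its reads in such a model. Its closest transcript is annotated as a retained intron form and had no read, so this difference is from a transcript not seen here. Where an intron was taken out of an annotated exon, the coding sequence often stayed whole, in 24 of 49 models. Ptov1 gave such a model with 192 and 74 reads, 43.2% and 38.9% of the gene, and its 184-base intron was removed in 54.0% and 50.3% of the reads over it.

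Kept introns mostly changed the stop codon. Of 92 models with a kept intron that could be read, 7 reached the annotated stop codon (7.61%), and 84 of the 85 others met a stop codon over 50 bases before the last junction. A further 53 could not be read because the intron lies in no annotated exon and no genome sequence was used. These models were also a small part of their genes. Their median share was 2.11% and 3.66% against 7.21% and 9.80% over all members, not matched for the reads of the genes. Srsf5, a splicing factor of the SR family, was an exception. Its model with a kept intron of 1229 bases held 67 of 214 reads in replicate 1, 31.3% (25.2% to 38.0%). In replicate 2 it held 38 of 103, 36.9% (27.6% to 47.0%). No other spliced model of the gene held more in either library, incomplete and genomic models not counted. Of all Srsf5 reads over this intron, incomplete and genomic models included, 72.7% and 70.5% kept it. The model ended after 124 codons in place of 269.

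Over all kinds, 892 models could be read from an annotated start codon to a stop. The annotated stop codon was reached by 583 (65.4%): 333 with the annotated coding sequence and 250 with codons changed before it. Another stop codon was met by 309, and in 222 of these it lay over 50 bases before the last junction. Models with another stop codon held a lower median share of their gene than those with the annotated coding sequence. The medians were 5.24% and 7.77% against 9.97% and 13.6%, not matched for the reads of the genes. Models with another stop codon still held 37.8% and 36.5% of the reads of the models that could be read, 7264 and 3518 reads. The 3 gap-only models of Oaz1 and Oaz2 gave 2160 and 852 of these. Their frame was read straight through the gap without the ribosomal frameshift, so their place in this class does not describe the antizyme protein. Of the rest, 76 had sequence not known here, 74 lacked the start codon, 13 belonged to genes with no complete coding transcript and 4 met no stop.

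Many models were minor, and some were the main form of their gene. The median share was 7.21% in replicate 1 and 9.80% in replicate 2 (8.51% ± 1.84, SD, n = 2), with 298 models under 5% in each library and 40 at 50% or more in each. In 173 genes a member held the most reads in both libraries, ties included, among spliced models other than incomplete and genomic ones. Of these genes 96 had 20 or more reads in each library, and in 24 of those 96 the closest annotated transcript had no read. Csnk1g2, a casein kinase, had a member as its main form, and its closest annotated transcript held 16 and 15 reads. Its model removes 81 bases from an annotated exon and held 189 and 96 reads, 73.3% (67.4% to 78.6%) and 80.0% (71.7% to 86.7%) of the gene. The intron was removed in 92.2% and 86.1% of reads over the place, and the predicted protein had 415 codons in place of 442.

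A member was found in 7.72% of the 9942 annotated nuclear genes with 3 or more reads in each library. The share was 3.69% for genes with 6 to under 100 reads over both libraries, 14.2% for 100 to under 1000 reads, and 31.8% for 1000 or more. The read minimum of the rule ties these shares to depth. A single member was found in 589 genes, 131 genes had 2, and 48 had 3 or more.

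The steroid genes had many members with very small shares. Of 21 genes for steroid synthesis, all detected, 9 had a member, 43 members in all, with a median share (mean of both libraries) of 0.109% against 8.66% over all members. They held 1.08% and 1.37% of the reads of the list. A kept intron was the difference in 22 of the 43. Cyp21a1, the steroid 21-hydroxylase, had 16 members, the most of any gene, that together made up 1.56% of 16959 reads and 1.79% of 14111. The first of them lacked the 90-base coding exon shown above and held 69 and 44 reads, 0.407% and 0.312% of the gene. Cyp11a1, which cleaves the side chain of cholesterol, had 10 members with 1.77% and 2.01% of its reads in all. The first of these, with an intron of 478 bases kept, held 0.895% and 0.811% of the gene. Counting every Cyp11a1 read over this intron, incomplete and genomic models included, 32.8% and 23.6% kept it. The small share of the model is thus not the share of reads that keep the intron. Cyp11b1 and Cyp11b2, the enzymes of the last steps to corticosterone and aldosterone, are close copies of each other, as Cyp21a1 is of a pseudogene, and assignment of reads between copies was not tested.

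Larger shares were found in Fdxr and Akr1b7. In Fdxr, the reductase that feeds electrons to mitochondrial steroid enzymes, a 3' splice site shifted by 54 bases gave 103 and 33 reads, 6.47% (5.31% to 7.80%) and 5.71% (3.96% to 7.92%), and shortened the predicted protein in frame from 494 to 476 codons. Over the junction 8.02% and 7.09% of reads used this site. In Akr1b7, an aldo-keto reductase, a model with an intron of 1048 bases kept held 3.57% and 6.29% of the reads. The members in Fdx1, Por, Nr5a1 and Cyp11b2, stood between 0.174% and 5.42%.

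Of 28 detected genes of cholesterol synthesis and uptake, 4 had members, 6 in all. Hmgcs1, the synthase that makes HMG-CoA, shifted a 3' splice site by 99 bases, with the coding sequence as annotated, in 121 of 2964 reads and 11 of 468, 4.08% (3.40% to 4.86%) and 2.35% (1.18% to 4.17%). Dhcr7 and Soat1 held 2 members each. The 2 of Dhcr7 had mean shares of 4.00% and 0.686% of all gene reads. Without incomplete and genomic reads these shares were 44.8% and 7.84%, so they depend strongly on which reads are counted. Of 23 detected medulla genes 3 had members, 7 in all: Th, tyrosine hydroxylase, which starts catecholamine synthesis, had 5, all with an intron kept, and the first held 2.53% and 4.21% of its reads. Chga and Cpe had 1 each, at under 1% of reads in both libraries.

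Genes for RNA splicing factors had 35 members in 17 of 42 genes, and these held 10.2% and 10.5% of the reads of the list. Of these 923 and 388 member reads, the 5 Hnrnpk models, whose placing is in doubt, held 545 and 180. A kept intron was the difference in 9, further introns upstream in 7, a changed 3' splice site in 6, and a site absent from the annotation in 5, all in Hnrnpk at the short exon described above. Another stop codon was met by 21 of the 35, the 5 of Hnrnpk among them. Srsf7, an SR protein, had an intron kept in a model with 20.5% and 27.5% of its reads, and Nono, a paraspeckle protein, a 3-base shift in 8.37% and 8.40%. Members were found in 3 of 88 detected cytosolic ribosomal protein genes (Rpl3, Rps14 and Rps19) and 3 of 81 respiratory chain genes (Ndufs1, Atp5b and Cyc1). Among genes with 100 or more reads over both libraries, 16 of 31 splicing factor genes, 9 of 19 steroid genes, 3 of 79 ribosomal protein genes and 3 of 79 respiratory chain genes had a member. Of all genes with 100 or more reads 15.2% had one.

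The shares of the models in the libraries were compared with a two-sided Fisher exact test per model, with Benjamini-Hochberg adjustment over all 8576 spliced models tested, annotated ones included. A difference was called at an adjusted p under 0.05 and 10 percentage points or more. The test compares 2 libraries and no conditions. Over all models tested, 530 were called (6.18%), with 5.97% higher in replicate 2 and 0.21% lower. Among the 1041 members tested 15 were called (1.44%), 14 of them higher in replicate 2, a lower share than the background. Between 10% and under 25% of the gene, 2.17% of members and 2.58% of annotated models were called, and at 25% or more, 4.30% and 8.64%.

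Most calls were lost when incomplete reads were left out. When reads of incomplete and genomic models were left out of the gene totals, 3 of 1024 members and 35 of 6547 models were called. A share was higher in replicate 2 for 73.9% of members over all gene reads and for 72.2% of annotated models. Without incomplete and genomic reads it was still higher in replicate 2 for 65.1% of members. Acsl5, an acyl-CoA synthetase, was called in both versions. Its model with another first exon held 65 of 251 reads in replicate 1, 25.9% (20.6% to 31.8%), and 66 of 141 in replicate 2, 46.8% (38.4% to 55.4%), with an adjusted p of 0.00118 by the Fisher exact test. Without incomplete reads the shares were 29.4% and 50.4%, with an adjusted p of 0.0186 by the same exact test.

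Pitrm1, a mitochondrial peptidase, was called over all reads, with 27.3% and 55.2% and an adjusted p of 0.000623 by the Fisher exact test. At the 3-base site itself its reads without the 3 bases were 40 of 74 and 61 of 98. Unc45a, a myosin chaperone, was the 1 member called lower in replicate 2, with 84 of 248 reads in replicate 1 and 14 of 84 in replicate 2, and an adjusted p of 0.0371 by the Fisher exact test. The call in Dab2, an endocytic adaptor, was made without incomplete reads and not over all reads, from 5 of 12 and 3 of 123 reads. A further 11 members called were in Pam, Hgs, Mtdh, Flywch1, Traf7, Crat, Alkbh3, Usp48, Ece1, Stxbp2 and Senp6, all higher in replicate 2. In Hgs, an endosomal sorting protein, the model used a 3-base site annotated in another gene, and its local use was 71.4% and 70.8% while its share of all gene reads was 30.7% and 58.1%.

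**Figure D5:**
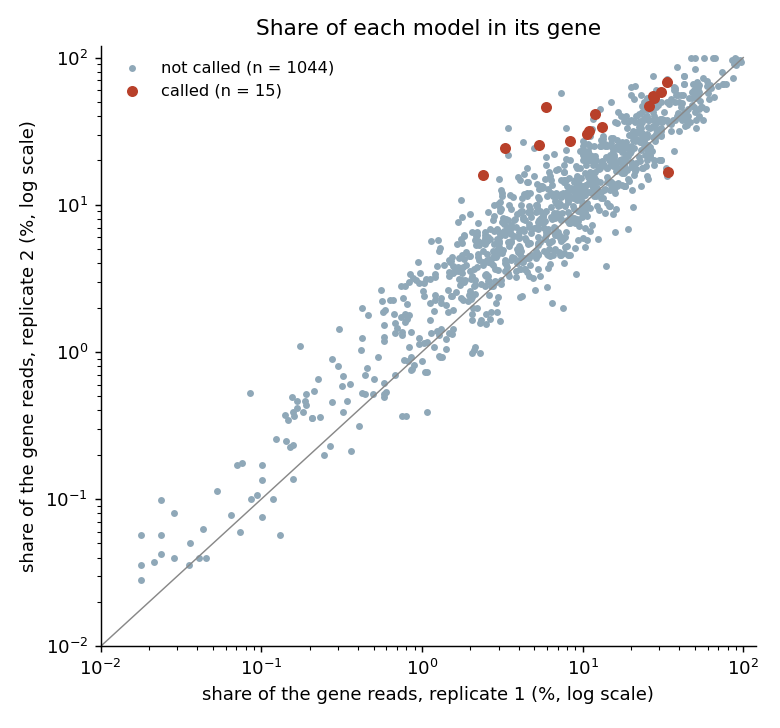
Share of the gene reads held by each of the 1059 models in replicate 1 (horizontal axis) and replicate 2 (vertical axis), in percent on log axes. Red points are the 15 models called between the libraries and the line marks equal shares; most points lie along the line, with more above it than below.

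The introns of a model are the same in both libraries by the matching rule, so only its ends could differ. The 5' end was at the same base in both libraries for 699 models (66.0%) and the 3' end for 705 (66.6%). In replicate 1, 97.4% of the 5' ends and 88.7% of the 3' ends were at an annotated end of the gene. The ends took no part in matching models between the libraries.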

How the data were processed

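For each of 2 libraries of long-read RNA sequencing, the authors deposited a table that counts the reads of every transcript model, and the exon coordinates of those models. Per the file headers and readme texts, the authors had assigned reads of a filtered mm10 alignment to models with the GENCODE M21 annotation, with new models from TALON; the labels name the ENCODE long-read pipeline document 3.0. For the aligner and the TALON version, the entry is not given in the sources used here. These counts as deposited are raw, without molecular identifiers, so exact Clopper-Pearson 95% intervals, and limits from a floor of 3 reads where none was seen, cover counting error only.

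Introns were computed from exon coordinates, and each model was compared with the annotated transcript of its gene with the fewest introns not shared (ties by reads). The share is a model's reads over all reads of its gene. Local use counts all reads of the gene, incomplete and genomic models included, that show the introns on either side of a difference. Frames were read with the bases of M21 transcripts, from the start codon of the closest coding transcript whose start codon the model holds; of 2158 annotated coding transcripts, 2151 gave their annotated coding sequence. Fisher tests (scipy 1.17.1, statsmodels 0.14.6) took models with 3 or more reads in each library and 10 or more other reads of the gene. Tested on data simulated with counting error alone, the test recovered 186 of 200 changes of 20 percentage points, with 4 false calls over 8324 models. All 200 raised the share in replicate 2, in genes with 100 or more reads in each library. Such genes hold 367 of the 1059 members. All of 1199 altered annotated transcripts were classed as made. Recovery of changes in share was not tested for the members alone, whose median was 9 reads in replicate 1 and 5 in replicate 2. Other software was Python 3.11.15, pandas 2.3.3, numpy 2.4.6 and matplotlib 3.10.9.

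Models are named by rule: the 12 with most reads, the 10 with the highest share in genes with 20 or more reads, members of the steroid, cholesterol and medulla lists, the 4 with most reads of the other lists, the 10 largest called differences, and the 3 with most reads of each kind. Coding exons, 3-base sites, short exons and further splicing factor models outside that rule (such as Ints13, Clstn1, Mff, Tbc1d9b, Mia2, Opa1, Setd3, Atl2, Akr1d1, Ecm1, Fkbp8, Hspbp1, Pitpnb, Srsf7, Nono, Unc45a, Mtdh, Stxbp2, Traf7 and Dab2 without incomplete reads) were chosen after their values were seen. Members, lists and tests were chosen with earlier results of these data known. No adjusted p is given over a list alone. Results on some genes are not reported here.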

Additional observations from a re-analysis of the deposited data

How the results depend on the processing

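No paired analysis was possible because there is 1 group, and with 2 libraries no sample could be tested as standing apart. The depth and the read minimum set the number of models. A minimum of 2, 5 or 10 reads in each library gave 1757, 558 or 225 models in place of 1059, with 2.26%, 1.66% or 1.25% of nuclear reads in place of 1.98% and a median share of 6.49%, 11.98% or 17.6% in place of 8.51%. With replicate 1 thinned to the depth of replicate 2 there were 703 models, a median share of 10.7% and 8 called members in place of 15. Taking 1 library alone, without the other replicate, gave from 1592 to 3099 models, from 2.65% to 2.68% of reads and median shares from 4.42% to 9.09%. Without incomplete and genomic reads 3 members were called. At 10 reads in each library the models by kind were 28 with an exon left out, 8 added, 30 with an intron kept, 9 removed, 22 with a changed 5' site, 40 with a changed 3' site, 23 with another first exon, 6 with another last exon, 17 with further introns upstream, 14 downstream, 16 with an absent site, 2 with sites of more than 1 gene, 5 combinations and 3 others, and 137 models reached the annotated stop codon in place of 583. With the closest transcript taken among those with a read, further introns downstream fell from 74 to 36 and gap-only models from 3 to 0. Leaving out gap-only models, models with absent sites, or, chosen after seeing the data, the 21 models at short exons or shifted introns moved none of the counts by more than 1.5 times. Without incomplete reads, 83 of 118 named models had a share that moved by less than the spread between the libraries, and 117 had a higher share. The cause of these changes was not tested, apart from fewer models by construction at higher minimums. Low counts limit single models: 334 rest on 3 reads in at least 1 library.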
